A study of Mus musculus with 17 samples.

Results

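Kidney mRNA of 10 organic anion and urate transporters of the proximal tubule was compared between lean, diabetic and dapagliflozin-treated diabetic mice. The members were taken by symbol: Slc22a6, Slc22a7, Slc22a8, Slc22a12, Slc22a13, Slc22a19, Slco1a1, Slco1a6, Slco4c1 and Abcg2, 10 of the 22558 genes used. In untreated db/db kidneys 7 of the 10 were lower than in control kidneys, where 6.91% of all genes tested were called lower. Slc22a7 was lower by 79.8-fold and Slco1a1 by 23.6-fold, a log2 fold change of -4.56 that was -5.61 without Case mouse 5. Between treated and untreated db/db mice edgeR's quasi-likelihood test called no member and 0% of all genes changed, while other tools called some genes but no member.

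Each of the 17 libraries came from the kidney of 1 male mouse. The Ctrl group was 5 C57BL/6 mice (genotype WT), the Case group 6 db/db mice (BKS.Cg-Dock7m +/+ Leprdb/J, which lack working leptin receptor and become obese and diabetic), and the Dapa group 6 db/db mice given the SGLT2 inhibitor dapagliflozin at 1 mg/kg/day. Dosing ran for 6 weeks from 8 weeks of age, and Ctrl and Case mice received saline. Ctrl and db/db mice differ in strain as well as in the Lepr mutation, so the effects of strain, mutation and diabetes cannot be told apart. Ctrl mice are numbered 1 to 5, Case mice 1 to 6 and Dapa mice 7 to 12.

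The cells of the proximal tubule clear drugs, toxins, conjugated hormones and urate from blood into urine. Uptake carriers of the SLC22 family on the blood side exchange organic anions for dicarboxylates, and carriers and ATP-driven pumps on the luminal side pass them into, or back from, the tubular fluid. Urate follows the same routes and is largely reabsorbed. In rodents many of these genes are expressed at different levels in males and females.

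Libraries held 13039535 to 17779635 counts. Mitochondrial genes took 17.9% to 20.4% of them in Ctrl, 19.8% to 27.3% in Case and 19.7% to 27.6% in Dapa libraries, and the median correlation of a library with its own group was 0.979 to 0.983, 0.960 to 0.970 and 0.964 to 0.975. The part of these differences in the members' values was not tested. The label kidney was checked by level: the proximal tubule phosphate carrier Slc34a1 had a mean of 1388 FPKM (fragments per kilobase of gene, scaled to the library's total count) in Ctrl mice and the liver gene Alb 9.84. The summed level of 12 proximal tubule markers was 5050 to 5406 FPKM in Ctrl mice, 2825 to 5381 in Case and 3133 to 4870 in Dapa. In whole kidney, fewer cells of a type and less RNA per cell cannot be told apart.

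In Ctrl kidneys the members spanned a wide range of levels. Slc22a12, which encodes the luminal urate reabsorber URAT1, led with a median of 391 FPKM, followed by Slc22a6 (237), Slc22a8 (138), Slco1a6 (72.4), Slco1a1 (70.3), Abcg2 (46.4), Slc22a7 (21.9), Slc22a13 (15.0), Slc22a19 (7.29) and Slco4c1 (1.94). The ranges of neighbours did not overlap between Slc22a12 and Slc22a6, Slc22a6 and Slc22a8, Slc22a8 and Slco1a6, Abcg2 and Slc22a7, or Slc22a19 and Slco4c1, and overlapped for the other pairs. In Case mice the first 4 places were the same, Slco1a1 stood 8th with a median of 1.88 FPKM and Slc22a7 10th with 0.273. The Dapa group had the order of the Case group, with Slco1a1 at 1.37 and Slc22a7 at 0.225.

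**Figure D1:**
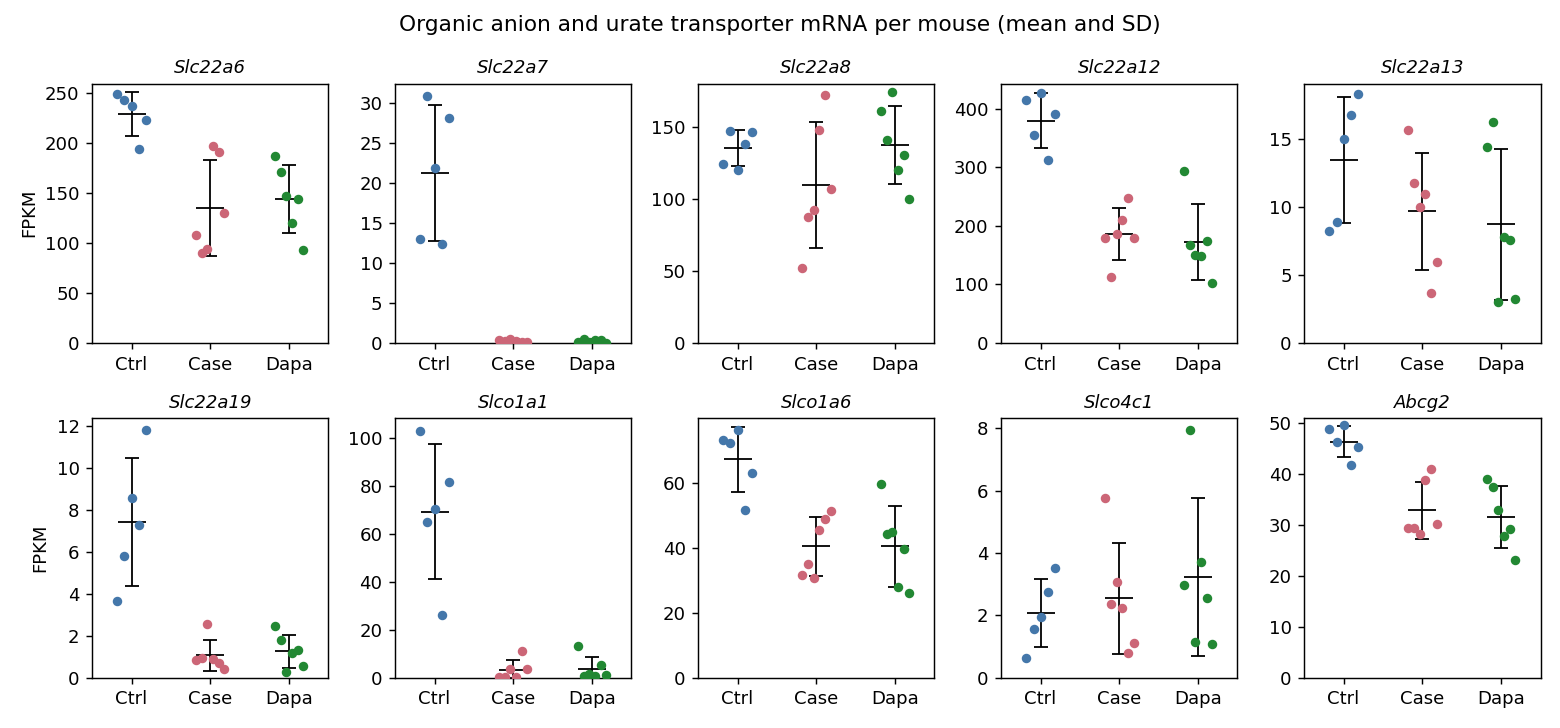
FPKM of each of the 10 transporters (vertical axes, linear, from 0) in every Ctrl, Case and Dapa mouse (points), with the group mean and SD (bars). The Case and Dapa points lie near 0 for Slc22a7 and reach 11.1 and 13.1 FPKM for Slco1a1, while the Ctrl points of these genes reach 30.9 and 103 FPKM. The 3 groups of Slc22a8, Slc22a13 and Slco4c1 overlap.

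The first comparison, Case against Ctrl, asked what differs in the diabetic kidney. A gene was called where the adjusted p (q, Benjamini-Hochberg over 14582 genes) of edgeR's quasi-likelihood test was under 0.05. It was called a differentially expressed gene (DEG) where the group means of FPKM also differed by more than 2-fold. The study used the same limits on q and fold with edgeR, but does not name which edgeR test. Of the members 7 of 10 were called lower and 0 higher, while 6.91% of all genes tested were called lower and 6.09% higher. The DEGs among them were Slc22a7, Slc22a12, Slc22a19 and Slco1a1, 4 of 10, against 1.46% of all genes lower as DEGs. Every Case mouse lay under every Ctrl mouse for 6 members (these 4, Slco1a6 and Abcg2), as it did for 3.46% of all genes tested. The median log2 fold change was -0.83 over the members and 0.03 over all genes tested, and 9 of the 10 members had a negative log2 fold change, as did 45.7% of all genes.

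**Figure D2:**
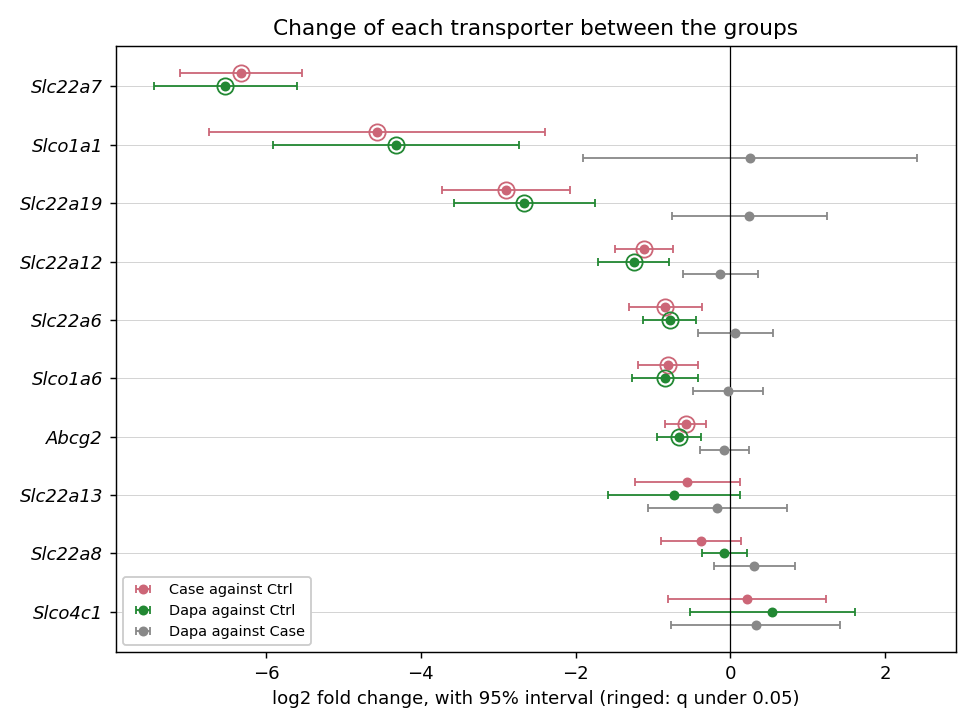
log2 fold change of each transporter (points) with its 95% interval (bars) from edgeR's quasi-likelihood fits of Case against Ctrl, Dapa against Ctrl and Dapa against Case, with a ring where q was under 0.05. Both db/db groups lie left of 0 for 7 ringed members, and every Dapa against Case interval spans 0; Slc22a7 was not tested in that comparison.

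Slc22a7, which encodes organic anion transporter 2 (OAT2), lies on chromosome 17 from 46432185 to 46438477 (mm10). Its level was 13.01, 30.9, 21.9, 12.4 and 28.1 FPKM in Ctrl mice 1 to 5, and its lowest, median and highest levels were 0.112, 0.273 and 0.550 FPKM in Case mice. The groups were far apart: the highest Case mouse was well below the lowest Ctrl mouse, and the Case values rest on 4 to 18 counts a library against 419 to 1017 in Ctrl. This is a log2 fold change of -6.32 (SE 0.36, 95% interval -7.11 to -5.53, q = 3.57e-06, edgeR's quasi-likelihood test).

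Slc22a19 encodes OAT5, a luminal transporter of sulfated steroids, on chromosome 19 from 7673061 to 7711310. Ctrl mice 1 to 5 had 3.68, 5.78, 8.59, 7.29 and 11.8 FPKM, and Case mice 0.415, 0.876 and 2.55 FPKM at the lowest, median and highest. The groups did not overlap, and Case mouse 3 stood above the other 5 Case mice. Its log2 fold change was -2.90 (SE 0.38, 95% interval -3.73 to -2.08, q = 0.000801, edgeR's quasi-likelihood test). Of the 50-base stretches of its transcripts, 0.985% also occur in its neighbours Slc22a27, Slc22a28, Slc22a29 or Slc22a30.

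The 2 general uptake carriers of the blood side, Slc22a6 (OAT1, chromosome 19, 8617996 to 8628299) and Slc22a8 (OAT3, chromosome 19, 8591254 to 8611834), lie side by side on the forward strand and exchange organic anions such as p-aminohippurate for dicarboxylates. Slc22a6 had 248, 243, 237, 194 and 222 FPKM in Ctrl mice 1 to 5, and 89.3, 119 and 197 FPKM at the lowest, median and highest Case mouse. All but 1 of the Case mice lay under all Ctrl mice, and Case mouse 4 was just inside the Ctrl range. The log2 fold change was -0.84 (SE 0.22, 95% interval -1.31 to -0.37, q = 0.0249, edgeR's quasi-likelihood test), with q between 0.0576 and 0.0604 when Ctrl mouse 1, 2 or 3 was left out.

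Slc22a8 had 124, 147, 120, 138 and 146 FPKM in Ctrl mice 1 to 5 and 51.7, 99.3 and 172 FPKM at the lowest, median and highest Case mouse. Case mice lay on both sides of the Ctrl range, 4 under all Ctrl mice and 2 (mice 4 and 5) above all of them. Its log2 fold change of -0.38 (SE 0.24, 95% interval -0.90 to 0.14) had q = 0.324 in edgeR's quasi-likelihood test. Whether the changes of the neighbours Slc22a6 and Slc22a8 differ from each other was not tested. Case mice 4 and 5, which were the highest for both genes and for Abcg2, also had the highest summed proximal tubule markers of the Case group, and the part of that level in these values was not tested.

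The urate carriers of the luminal side came next. Slc22a12 (URAT1, chromosome 19, 6535845 to 6543019) takes urate back from the tubular fluid, and it had 415, 356, 427, 312 and 391 FPKM in Ctrl mice 1 to 5. Its lowest, median and highest Case levels were 113, 183 and 248 FPKM. Every Case mouse was under every Ctrl mouse. With a log2 fold change of -1.11 (SE 0.17, 95% interval -1.49 to -0.74, q = 0.002, edgeR's quasi-likelihood test), Slc22a12 was called lower. Its group means differed by 2.04-fold, just past the 2-fold limit for a DEG, and by 1.998-, 1.98- and 1.90-fold without Ctrl mouse 1, Ctrl mouse 3 or Case mouse 2, where it was no longer a DEG while q stayed under 0.05. An exon of Nrxn2 overlaps it on the other strand, but Nrxn2 itself was at 0.0783 to 0.235 FPKM in all mice.

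Slc22a13 (OAT10, chromosome 9, 119193002 to 119209105) exchanges nicotinate and urate at the luminal side. It ranged from 8.24 to 18.3 FPKM in Ctrl and from 3.68 to 15.7 in Case, with overlapping groups. Its log2 fold change of -0.55 (SE 0.31, 95% interval -1.23 to 0.12) had q = 0.264 in edgeR's quasi-likelihood test. This gene shares 36.0% of its 50-base stretches with the pseudogene Slc22a13b-ps, which was itself listed at 0 to 0.609 FPKM, so its level is uncertain by reads that could fall to either.

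Abcg2 (chromosome 6, 58584523 to 58695676) encodes the luminal efflux pump BCRP, which exports urate and drug conjugates. It had 48.8, 46.4, 49.6, 41.8 and 45.2 FPKM in Ctrl mice 1 to 5 and 28.2, 29.8 and 41.0 FPKM at the lowest, median and highest Case mouse. The highest Case mouse, mouse 5, fell just short of the lowest Ctrl mouse, mouse 4. Abcg2 had a log2 fold change of -0.58 (SE 0.12, 95% interval -0.84 to -0.31, q = 0.0112, edgeR's quasi-likelihood test), the smallest in size of the 7 called.

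The organic anion transporting polypeptides of the SLCO family carry bile acids, steroid conjugates and thyroid hormones. Slco1a1 (chromosome 6, 141907282 to 141946962) had 103, 65.0, 70.3, 26.3 and 81.8 FPKM in Ctrl mice 1 to 5. Case mice 1 to 6 had 0.0739, 0.131, 3.47, 0.290, 11.1 and 3.60 FPKM. No Case mouse reached the Ctrl range, yet the Case mice differed among themselves by 150-fold, from 8 to 1328 counts. The log2 fold change was -4.56 (SE 1.00, 95% interval -6.73 to -2.39, q = 0.0127, edgeR's quasi-likelihood test), and -5.61 without Case mouse 5. Its promoter is shown as that of the most changed member that the promoter table held (RefSeq, GRCm38.p6, chr6:141946913-141947212, reverse strand), 250 bases before to 50 after the start. No part of it is marked.
Slco1a1: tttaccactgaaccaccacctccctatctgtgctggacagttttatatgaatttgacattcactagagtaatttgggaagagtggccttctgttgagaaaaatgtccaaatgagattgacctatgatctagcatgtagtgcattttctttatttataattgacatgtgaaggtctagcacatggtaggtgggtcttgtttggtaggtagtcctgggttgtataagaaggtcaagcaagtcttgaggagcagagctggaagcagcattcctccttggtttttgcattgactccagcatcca

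Slco1a6 (chromosome 6, 142085761 to 142208521), of the same gene cluster, had 73.3, 72.4, 76.3, 51.7 and 63.2 FPKM in Ctrl mice 1 to 5 and 30.7, 40.3 and 51.4 FPKM at the lowest, median and highest Case mouse. The highest Case mouse was just below the lowest Ctrl mouse. The log2 fold change was -0.81 (SE 0.18, q = 0.0127, edgeR's quasi-likelihood test). It shares 6.22% of its 50-base stretches with Slco1a1 and other genes of the cluster, and Slco1a1 shares 1.64%. Slco4c1 (chromosome 1, 96816270 to 96872171), a blood-side carrier of digoxin and uremic toxins, was the lowest member in Ctrl, at 0.627 to 3.50 FPKM. Case mice ranged from 0.775 to 5.76 FPKM and overlapped with Ctrl, apart from Case mouse 1, which was above all Ctrl mice. Its log2 fold change of 0.22 (SE 0.47, 95% interval -0.81 to 1.24) had q = 0.803 in edgeR's quasi-likelihood test.

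Members varied unequally between mice. Among Case mice the coefficient of variation was 17.02% for Abcg2, 22.6% for Slco1a6, 23.9% for Slc22a12 and 136% for Slco1a1. Ctrl mouse 4 was the lowest Ctrl mouse for 6 of the 10 members, Dapa mouse 12 the lowest Dapa mouse for 7, and Dapa mouse 7 the highest for 6. Ctrl mouse 4 and Dapa mouse 12 also had the lowest summed proximal tubule markers of their groups, 5050 and 3133 FPKM, while Dapa mouse 7 stood 4th from low among the 6 Dapa mice. The same pair had the highest summed loop to collecting duct, podocyte and endothelial markers and the highest mitochondrial shares of their groups, 20.4% and 27.6%. The part of these levels in the members' values was not tested.

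The second comparison, Dapa against Case, addressed the effect of the drug in diabetic mice. By edgeR's quasi-likelihood test 0 of the 9 members tested and 0% of 14573 genes were called, with a smallest q of 0.173. At an unadjusted p under 0.05 there were 1880 genes and 0 members. DESeq2 called 202 genes and edgeR's exact test 129 at q under 0.05, with 0 members in either. The paper described DEGs between these groups, from an edgeR test it does not name. Beside the median over all genes tested of -0.01, the median log2 fold change over the 9 members was 0.07, 4 were negative and 5 positive.

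The intervals show how large a drug effect these mice could still hide. The log2 fold change of Slc22a6 was 0.07 (95% interval -0.42 to 0.55), that of Slc22a8 0.31 (-0.21 to 0.83), that of Slc22a12 -0.13 (-0.61 to 0.35), that of Slco1a6 -0.03 (-0.49 to 0.42) and that of Abcg2 -0.08 (-0.39 to 0.24), so that for these 5 members changes of 2-fold in either direction lay outside the interval. The intervals were wider for Slc22a13 (-0.17, -1.07 to 0.73), Slc22a19 (0.25, -0.76 to 1.25) and Slco4c1 (0.33, -0.76 to 1.42). For Slco1a1 the estimate was 0.26 with an interval of -1.90 to 2.42, and both groups were widely spread. Case mice ranged from 0.0739 to 11.1 FPKM, and Dapa mice 7 to 12 had 13.1, 0.809, 1.54, 0.771, 5.35 and 1.20 FPKM. Dapa mouse 7 lay above every Case mouse, and the other 5 lay within the Case range. Slc22a7 had too few counts in both groups (0 to 18 a library) to pass the filter, and without a filter its log2 fold change was -0.23 (95% interval -1.55 to 1.09, q = 0.90, edgeR's quasi-likelihood test).

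The third comparison, Dapa against Ctrl, uses the same Ctrl mice as the first, so both share whatever is particular to those 5 mice. The 7 members called lower were again Slc22a6, Slc22a7, Slc22a12, Slc22a19, Slco1a1, Slco1a6 and Abcg2, against 14.9% of the 14647 genes tested called lower. The 4 DEGs were Slc22a7, Slc22a12, Slc22a19 and Slco1a1, against 2.12% of all genes. Every Dapa mouse lay under every Ctrl mouse for 6 members (4.74% of all genes), here Slc22a6 and not Slco1a6 among them, since Dapa mouse 7 had 59.8 FPKM of Slco1a6. The median log2 fold change of the members was -0.82, against 0.02 over all genes tested.

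Side by side, log2 fold changes against Ctrl in Case and in Dapa mice were -6.32 and -6.53 for Slc22a7, -4.56 and -4.32 for Slco1a1, and -2.90 and -2.66 for Slc22a19. They were -1.11 and -1.25 for Slc22a12, -0.84 and -0.78 for Slc22a6, -0.81 and -0.85 for Slco1a6, and -0.58 and -0.66 for Abcg2. In edgeR's quasi-likelihood test of Dapa against Ctrl the q of these 7 ran from 1.28e-05 for Slc22a7 to 0.00739 for Slco1a6. Slco1a1 moved to -5.29 without Dapa mouse 7. The 3 members not called were Slc22a8 at -0.08 (95% interval -0.37 to 0.21, q = 0.699), Slc22a13 at -0.73 (q = 0.187) and Slco4c1 at 0.54 (q = 0.437) in the same test, the last being 0.05 without Dapa mouse 8.

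The genes whose profile over the 17 mice was most like that of Slc22a7 or Slco1a1 were taken by the root mean square difference of centred log2(FPKM + 1) among 11455 genes, as a description. For Slc22a7 these were Gm6300 (0.41), Acsm3 (0.62) and Cyp51 (0.86), the last an enzyme of cholesterol synthesis. Gm6300 had no count in any of the 12 db/db mice (a count of 0 allows up to 3 counts a library) and 3.59 to 22.5 FPKM in Ctrl mice. For Slco1a1 they were Kap (0.87), Acsm3 (0.92) and Slc7a13 (1.01). Kap, the kidney androgen-regulated protein gene, had a mean of 11298 FPKM in Ctrl, 1539 in Case and 2127 in Dapa mice, and Slc7a13, a transporter of the S3 segment, 254, 28.7 and 50.1. From low to high, Case mice ran 1, 2, 4, 3, 6, 5 for Slco1a1 and 2, 1, 4, 3, 6, 5 for Kap, Dapa mice 10, 8, 12, 9, 11, 7 and 12, 10, 8, 9, 11, 7, and Ctrl mice 4, 2, 3, 5, 1 and 4, 3, 5, 2, 1. Kap was chosen for its likeness over these same mice, so a like order is in part built in.

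**Figure D3:**
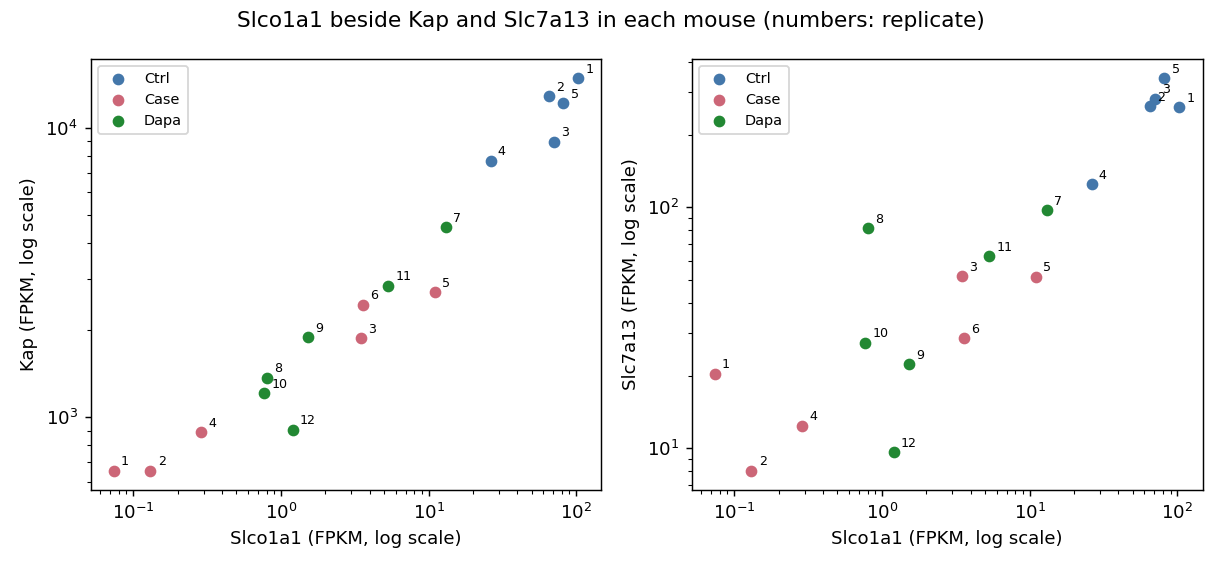
FPKM of Slco1a1 (horizontal, log scale) against that of Kap (left) and Slc7a13 (right, vertical, log scale) in each of the 17 mice, coloured by group and numbered by replicate. Ctrl mice lie at the upper right and Case mice 1, 2 and 4 at the lower left, and Dapa mouse 7 and Case mouse 5 are the db/db mice with most Slco1a1, 13.1 and 11.1 FPKM.

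Other genes of the same routes were described by lists, whose counts in Case against Ctrl stand beside 6.91% of all genes tested called lower and 6.09% called higher. Of the other Slc22a organic anion transporters, 5 were tested in Case against Ctrl and 4 were lower: Slc22a26 (log2 fold change -3.11), Slc22a30 (-2.26), Slc22a28 (-2.05) and Slc22a22, a prostaglandin carrier (-1.52). Of 5 other SLCO genes tested 2 were lower, Slco1a4 (-3.12) and Slco3a1 (-0.68), and 2 higher, among them Slco4a1 (1.85). Of 7 ABC efflux pumps of organic anions 2 were higher, the luminal pump Abcc4 (1.12) and Abcc1 (0.56), and 0 lower. Of 7 urate and phosphate-urate carriers and scaffold genes tested 4 were lower, among them Slc17a3 (-1.68), Slc17a4 (-1.13) and Slc17a1 (-0.72), and 1 higher, Slc2a9 (0.36), which encodes the urate carrier GLUT9. Median log2 fold changes were -2.05, 0.41, 0.10 and -0.62 for these 4 lists, against 0.03 over all genes.

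Against the same shares of all genes, 1 of the 5 exchange partners was lower, the lactate carrier Slc5a8 (-0.81). Of 8 enzymes from purines to urate 1 was higher, Xdh (1.55, q = 0.0203 in edgeR's quasi-likelihood test), whose product xanthine dehydrogenase forms urate. Of 12 transcription regulators of transporters 2 were higher, Nr1i3 (2.42) and Nr1i2 (0.77), the receptors CAR and PXR, and 0 lower. Hnf4a, a regulator of proximal tubule genes, had -0.38 (q = 0.0616) in Case against Ctrl and was called lower in Dapa against Ctrl, at -0.57 (q = 0.00883, edgeR's quasi-likelihood test in both). All 6 androgen-raised genes were lower, with Acsm3 (-3.93), Kap (-2.95) and Cyp4a12a (-2.40) first and a list median of -2.19. The medians of the other 3 lists were -0.38, 0.36 and -0.15.

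Markers of cell types also differed between the groups, again beside 6.91% of all genes called lower and 6.09% higher. Of 12 proximal tubule markers 4 were lower in Case than in Ctrl, among them Ggt1 (-1.06), Lrp2 (-0.98) and Slc27a2 (-0.82), with a median of -0.39, and 0 were higher. Of 4 markers of its S3 segment 3 were lower, Slc7a13 (-3.24), Cyp7b1 (-3.19) and Atp11a (-1.77), while the fourth, the sugar carrier Slc5a10, was not called at 0.32 (q = 0.148, edgeR's quasi-likelihood test), with 5 of 6 Case mice above every Ctrl mouse. The summed S3 level was 233 to 486 FPKM in Ctrl, 80.2 to 143 in Case and 61.3 to 191 in Dapa mice. Its largest part was not the same gene in each group. Mean levels in Ctrl, Case and Dapa mice were 254, 28.7 and 50.1 FPKM for Slc7a13 and 53.7, 70.8 and 62.3 for Slc5a10. Of 8 markers of loop, distal tubule and collecting duct 3 were higher, Calb1 (1.55) first, and of 4 podocyte markers 2, while 0 of 6 endothelial, 0 of 6 macrophage and 0 of 5 liver markers were called. The summed level of the loop to collecting duct list was 693 to 1805 FPKM in Ctrl, 1240 to 3079 in Case and 1630 to 2457 in Dapa mice, and that of the macrophage list reached 179 FPKM in Case mouse 3. The 4 adipocyte markers had counts in too few libraries to be tested. Their summed level was at most 14.5 FPKM in Ctrl (mouse 3, with a median of 0.0194 over the group), 0.154 in Case and 5.19 in Dapa mice. The part of these levels in the members' differences was not tested.

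In Dapa against Case 0 genes of any of these lists were called by edgeR's quasi-likelihood test. Dapa against Ctrl, where 14.9% of all genes were called lower and 14.2% higher, gave 4 lower and 1 higher of the 5 other Slc22a genes, 5 lower and 0 higher of the 7 urate carriers and scaffold genes, 3 higher of the 7 ABC pumps, 6 lower of the 6 androgen-raised genes and 7 lower of the 12 proximal tubule markers. It also gave 3 lower of the 4 S3 markers, 2 lower and 2 higher of the 5 other SLCO genes, 5 higher of the 8 loop to collecting duct markers, 2 higher of the 4 podocyte and 1 higher of the 6 endothelial markers. Of the exchange partners 2 of 5 were lower, of the purine enzymes 1 of 8 was lower and 1 higher, of the regulators 3 of 12 were lower and 3 higher, and 0 of 6 macrophage and 0 of 5 liver markers were called. Xdh ranged from 7.95 to 12.1 FPKM in Ctrl, 9.98 to 50.5 in Case and 9.21 to 14.6 in Dapa mice. Its log2 fold change in Dapa against Case was -1.40 (95% interval -2.14 to -0.66), which was not called after adjustment (q = 0.197, edgeR's quasi-likelihood test). Other list genes had a q as low or lower in the same test and were not called either. These were Abcc1 (0.54, q = 0.179), Urah (-0.96, q = 0.181) and Slc16a1 (0.92, q = 0.197).

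**Figure D4:**
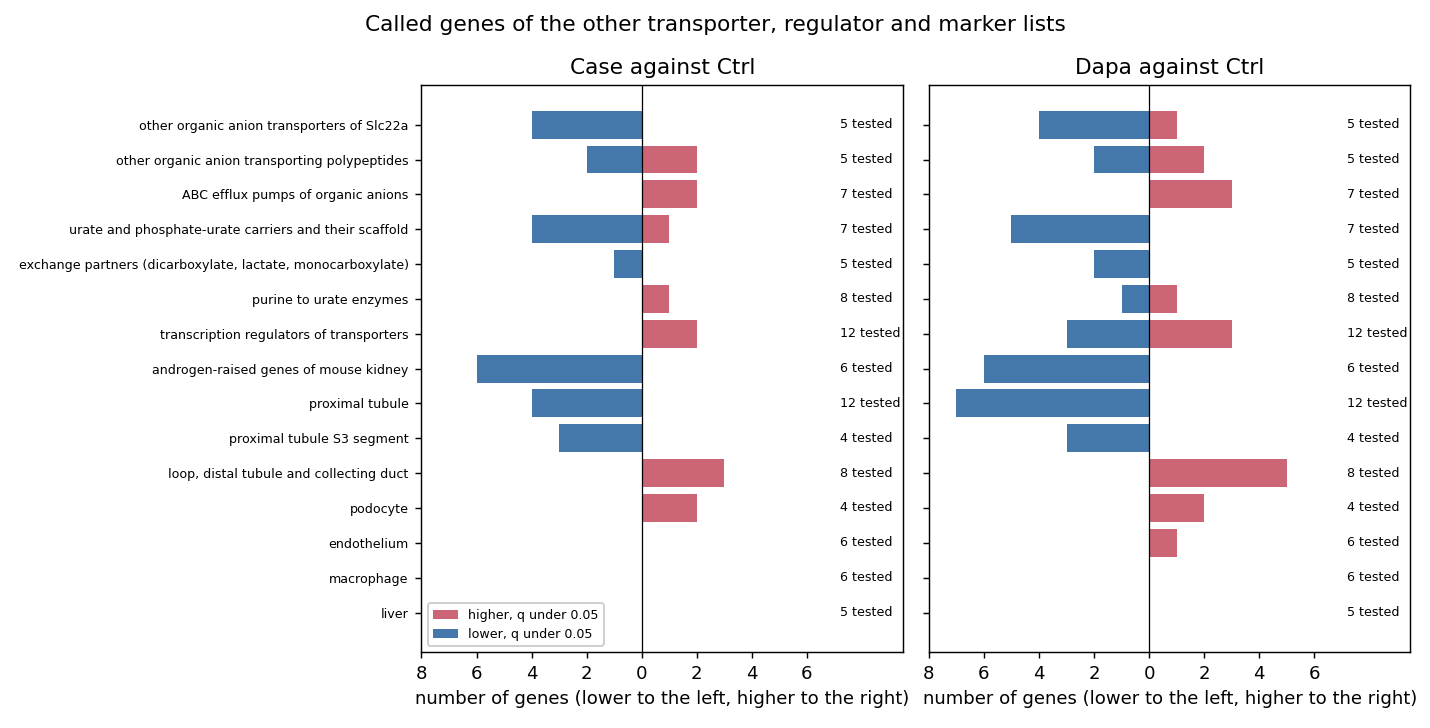
Number of genes of each list called lower (left of 0) or higher (right of 0) at q under 0.05 in Case against Ctrl and Dapa against Ctrl, with the number tested beside each bar. The androgen-raised list is lower in 6 of 6 in both, and the ABC pumps show calls to the right alone.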

How the data were processed

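RNA from mouse kidneys was enriched with oligo(dT) and sequenced from strand-specific libraries. The authors used HISAT2 (genome mm10) and Stringtie to map reads and count them by gene, and deposited the read counts and FPKM values for 22561 genes; the annotation and the strand setting of the counting are not given in the sources used here. The deposited FPKM followed count, library total and gene length within 0.00333% over 12015 genes, so no TMM factor is visible in them. Here 3 genes with entries broken over 2 lines (Sirt1, Tgfb1, Bmp4) were left out, and 22558 remained. No 2 libraries of a group agreed within sampling noise (lowest chi-square per gene 15.0). Mice are taken as replicates from the labels.

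Counts were tested with edgeR 4.0.16 (TMM, filterByExpr, glmQLFit, glmQLFTest) in R 4.3.3, each comparison fitted over the whole table on its own 2 groups, with Benjamini-Hochberg adjustment. Results were recomputed by DESeq2 1.42.0 and by the exact test of edgeR, with other scalings and filters, with all groups in 1 fit, with limma 3.58.1 on log2 FPKM, with group medians for the fold, with a replicate block and leaving out each mouse. The procedure was also tested on simulated data. Exon overlaps and shared 50-base stretches came from GENCODE annotation of GRCm38. Motif searches of promoters are not reported here. The members and lists were chosen with earlier results of these data known. Named genes were all members and, of each list, up to 3 called genes with the largest log2 fold change in Case against Ctrl. Gm6300, Acsm3, Cyp51, Kap and Slc7a13 were named for a profile like that of a member. Nrxn2, Slc22a13b-ps and the neighbours of Slc22a19 were named for exon overlap or shared stretches. Further genes named (Slc22a22, Slc2a9, Hnf4a, Slc5a10, Slc34a1 and Alb) were chosen after their values were seen. So were Xdh, Abcc1, Urah and Slc16a1 in Dapa against Case.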

Additional observations from a re-analysis of the deposited data

Results flagged for a closer look

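In 3 of 30 groups of member values the highest mouse lay apart from the rest by Dixon's test at the 95% level. Chance gives about 1 in 20 groups where values are normally spread. FPKM values can be skewed, as those of Slco1a1 were, so the 3 groups cannot be read against that rate. Slc22a19 was 2.55 FPKM in Case mouse 3 and at most 0.926 in the other Case mice. Slco1a1 was 11.1 FPKM in Case mouse 5, with 3.60 in the next, and 13.1 FPKM in Dapa mouse 7, with 5.35 in the next. All 3 values were below every Ctrl mouse.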

How the results depend on the processing

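The 7 members called lower in Case against Ctrl kept their direction under every alternative run. Their count was 7 under DESeq2, edgeR's exact test, both other scalings, no filter, all groups in 1 fit and both limma fits, and 6 to 7 when 1 mouse was left out. With at least 10 counts required in every sample, Slc22a7 and Slco1a1 were no longer tested and 2 members were DEGs. In Case against Ctrl the genes with q under 0.05 numbered 1002 to 2154 with 1 mouse left out (1895 with all), lowest without Ctrl mouse 3, then 5, 2 and 1 (1125, 1150 and 1160). With limma on log2(FPKM + 1), Slc22a7 in Case against Ctrl was -4.04, a change that the added constant shrinks. Apart from leaving out a mouse, the alternative runs gave Slc22a7 in Dapa against Ctrl a value as small in size as -4.09 (main -6.53). Slc22a19 came to -2.02 in Case against Ctrl (main -2.90) and -1.90 in Dapa against Ctrl (main -2.66). Slco1a1, at -4.56, was -5.79 in limma with 0.1 added and -6.27 with the replicate block described next.

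Equal replicate numbers gave no sign of pairing in these values: the correlations of their deviations ran from -0.08 to -0.03, and no Ctrl mouse correlated best with its own number. Whether mice of equal number were handled together cannot be told from this. With the number as a replicate block (10 mice), 4 members (Slc22a7, Slc22a12, Slc22a19, Slco1a1) and 699 genes had q under 0.05 and 298 genes were DEGs, where the same 10 mice without the block, a fit added after the data were seen, gave 7, 1615 and 547.

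In Dapa against Case, DESeq2 gave 202 genes with q under 0.05 and 81 DEGs, edgeR's exact test 129 and 71, and all groups in 1 fit 5 genes. With 1 mouse left out the counts were 0 to 7 genes and 0 to 3 DEGs, the highest without Dapa mouse 7. The cause of these differences between tools was not tested. No member was called in any of these.

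Some members that were not called changed sign when 1 mouse was left out. Slco4c1 ran from -0.22 to 0.47 in Case against Ctrl. In Dapa against Case the log2 fold changes ran from -0.029 to 0.20 for Slc22a6, -0.44 to 0.027 for Slc22a13, -0.055 to 0.69 for Slc22a19, -0.73 to 1.28 for Slco1a1, -0.17 to 0.075 for Slco1a6 and -0.16 to 0.75 for Slco4c1. In Dapa against Ctrl, Slc22a8 ran from -0.16 to 0.013, and was 0.0069 and 0.0068 in limma with 1 and 0.1 added to FPKM. Depth limits Slc22a7 in db/db mice, at 0 to 18 counts, where the interval without a filter, -1.55 to 1.09, leaves changes of about that size undetectable. Mice are few, and the Case and Ctrl mice each enter 2 comparisons.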
